A study of Mus musculus with 96 samples.

Results

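In mouse liver, 7 long noncoding RNAs were followed by name through 96 RNA-seq libraries depleted of ribosomal RNA: Malat1, Neat1, Kcnq1ot1, Gas5, Snhg1, Snhg12 and Epb41l4aos. They are 7 of the 47373 genes in the deposited count table, chosen by name, and all 7 passed the low-count filter of every comparison. The tissue came from 12 male B6C3F1 mice, a hybrid strain of toxicology, aged 10 to 11 weeks. The 6 control mice (8A, 8C, 8D, 21C, 82B and 90C) drank water with 0 ppm phenobarbital and 6 treated mice (18B, 18D, 20B, 20D, 75C and 80B) drank 600 ppm for 7 days. Phenobarbital is a barbiturate that induces hepatic drug metabolism through the nuclear receptor CAR.

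Each liver gave 1 library to each of 8 preservation states, so that 16 groups held 6 animals each. All fixed portions were cut from frozen tissue of mixed liver lobes. The frozen state was never fixed. The ethanol state spent 3 months in 70% ethanol before paraffin. The 18-hour formalin state went from formalin into ethanol for the rest of 3 months, and the 3-month formalin state stayed in formalin throughout; both were then embedded. Material of the 3-month formalin state was also treated in 4 ways meant to lift formalin adducts off RNA. In the TAE state, RNA already isolated was kept in Tris-acetate-EDTA buffer at 70 °C for 30 minutes. In the AllPrep catalyst and PureLink catalyst states, an organocatalyst was present for 18 hours at 55 °C, and RNA was isolated with the Qiagen AllPrep or the Invitrogen PureLink kit. The heat-only state had the same 18 hours at 55 °C without catalyst and the AllPrep kit. Frozen RNA was isolated with RNAzol RT and RNeasy MinElute. For the ethanol, formalin and TAE states the sources used here name no kit, and kit and preservation cannot be told apart in most comparisons. Replicates within a group are separate animals.

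Long noncoding RNAs are transcripts without a long open reading frame. Malat1 lies in nuclear speckles, which store splicing factors, Neat1 is the architectural RNA of paraspeckles, and Kcnq1ot1 is an imprinted transcript that stays at its locus and silences neighbours in cis; all 3 are retained in the nucleus. Gas5, Snhg1 and Snhg12 carry small nucleolar RNAs (snoRNAs, guides for chemical modification of ribosomal RNA) in their introns, and their spliced exons are exported, bound by ribosomes and destroyed by nonsense-mediated decay. Epb41l4aos (ENSMUSG00000087590), a gene of 430 exonic bases, is named as the antisense partner of the coding gene Epb41l4a and holds a snoRNA gene in an intron.

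Malat1 and Neat1 are neighbours on chromosome 19 (GRCm38, GENCODE M21, minus strand). Malat1 (ENSMUSG00000092341) spans 5795690 to 5802672 and Neat1 (ENSMUSG00000092274) spans 5824708 to 5845478, each as 1 exonic block. At the 3′ ends shown here, neither Malat1 nor the Neat1 transcript of 20771 bases has a conventional poly(A) tail. Counts are per gene and do not separate Neat1 transcripts with other ends. In both RNAs, RNase P cuts below a genomically encoded A-rich tract, which folds with a pair of U-rich motifs into a stabilising triple helix. Their 3′ ends are shown because they set these RNAs apart from the 5 others, and because a library made by ribosomal RNA depletion does not require a tail. In both sequences, 5′ to 3′ and written as DNA, capitals mark TTTCTTTTCCTGA, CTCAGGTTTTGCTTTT and AAAAAGCAAAA, the 3 stretches of at least 10 letters that the last 400 bases of the 2 transcripts have in common.
Malat1, chr19:5795982-5796065, minus strand: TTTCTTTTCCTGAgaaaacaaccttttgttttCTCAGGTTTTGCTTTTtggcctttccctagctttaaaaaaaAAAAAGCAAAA
Neat1, chr19:5824708-5824797, minus strand: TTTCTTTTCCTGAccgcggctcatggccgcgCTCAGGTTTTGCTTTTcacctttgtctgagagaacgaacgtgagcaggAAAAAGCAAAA
The Neat1 stretch of 90 bases ends at the last base of the annotated transcript, and the Malat1 stretch of 84 bases lies 292 bases before its annotated end. Each of the 3 stretches occurs 1 time in each transcript. Read on the sense strand of 141767 GENCODE transcripts, they occur in 35 (0.0247%), 2 (0.00141%) and 618 (0.436%), and these 2 transcripts alone hold all 3.

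Kcnq1ot1 (ENSMUSG00000101609, chromosome 7, 143203458 to 143296549, minus strand) is a single exon of 93092 bases antisense to the coding gene Kcnq1. Gas5 (ENSMUSG00000053332, chromosome 1, 161034422 to 161038539), Snhg1 (ENSMUSG00000108414, chromosome 19, 8723475 to 8726443) and Snhg12 (ENSMUSG00000086290, chromosome 4, 132308623 to 132311024) are on the plus strand. Merged over annotated transcripts, the exons of Snhg1 and Snhg12 cover their whole spans of 2969 and 2402 bases. Those of Gas5 cover 3760 of 4118 bases. The counts of these hosts therefore do not separate spliced from unspliced RNA. Host genes of snoRNAs usually start within a run of pyrimidines, the motif of translation-machinery genes, so 50 bases on either side of the RefSeq start (GRCm38.p6) are shown for the 3 classical hosts, which changed in the same direction in most states, and for Malat1 as a contrast. Capitals mark the longest run of C or T that touches the 10 bases either side of the start.
Gas5, chr1:161035116-161035215, plus strand: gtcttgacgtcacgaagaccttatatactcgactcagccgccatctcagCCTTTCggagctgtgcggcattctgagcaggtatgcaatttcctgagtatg
Snhg1, chr19:8723437-8723536, plus strand: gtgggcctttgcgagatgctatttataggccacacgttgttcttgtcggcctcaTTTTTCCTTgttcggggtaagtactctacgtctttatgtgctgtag
Snhg12, chr4:132308628-132308727, plus strand: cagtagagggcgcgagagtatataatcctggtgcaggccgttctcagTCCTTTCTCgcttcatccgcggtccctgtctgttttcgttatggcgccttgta
Malat1, chr19:5802623-5802722, minus strand: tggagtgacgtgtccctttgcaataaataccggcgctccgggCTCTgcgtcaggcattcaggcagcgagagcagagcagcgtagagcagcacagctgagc
The runs are 9 bases long in Snhg1 and in Snhg12, and 9.55% of 32851 RefSeq promoters hold one as long. The Gas5 run is 6 bases (29.2% of promoters) at the downstream of its 2 RefSeq starts and 3 bases at the other (82.9%). The Malat1 run is 4 bases (63.9%). Kcnq1ot1 has a run of 2, and Neat1 and Epb41l4aos are not in that table.

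The totals of the 96 libraries ran from 1264563 to 18442730 counts, with a median of 11913138, and the shallowest library was the 3-month formalin portion of animal 8A. Mitochondrially encoded genes held a mean of 2.57% of counts in frozen liver and 9.92% in 3-month formalin liver, with 4.56% to 8.29% after the 4 further treatments. The phenobarbital-induced gene Cyp2b10 matched the treatment labels in all 96 libraries: it was at most 4.14 CPM (counts scaled to library size) in any control library and at least 834 CPM in any treated one. Markers of hepatocytes, Kupffer cells, endothelium and stellate cells were above 0 in every state, as the label liver requires, and their sums are given beside the results they move with. In bulk RNA, fewer cells of a type and less RNA per cell cannot be told apart.

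Malat1 was by far the most abundant of the 7 RNAs. Levels are CPM after TMM scaling, given as the lowest, median and highest of 12 animals. In frozen liver Malat1 was at 8270, 10503 and 11469 CPM and took a mean of 0.899% of all counts. It was at 8868, 10708 and 12876 CPM in ethanol, at 4734, 6311 and 7455 CPM in 18-hour formalin and at 4309, 6693 and 8479 CPM in 3-month formalin. Every 18-hour formalin library lay below every frozen and every ethanol library. After TAE heating the 3 values were 5952, 9549 and 15855 CPM, the widest spread of Malat1 in any state. They were 7950, 10719 and 14197 CPM with the catalyst and AllPrep, 12009, 15987 and 19746 CPM with the catalyst and PureLink, and 6866, 11333 and 15487 CPM with heat alone. The lowest PureLink library was above the highest frozen one, and Malat1 took a mean of 1.68% of all counts there.

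Neat1 differed far more between animals than between most states. It was at 860, 1828 and 4233 CPM in frozen liver, 1123, 1945 and 4699 in ethanol, 821, 1464 and 2703 in 18-hour formalin and 546, 957 and 2370 in 3-month formalin. The further treatments gave 741, 1651 and 2562 CPM with TAE, 1065, 1965 and 4399 with AllPrep catalyst, 1816, 3362 and 7535 with PureLink catalyst and 1105, 2162 and 4170 with heat alone. The ranges of all 8 states overlapped, and its state differences are read within animals. Control animal 90C was the highest in 6 of 8 states and treated animal 18B the lowest in 7 of 8. The highest animal exceeded the lowest 4.92-fold in frozen liver, against 1.39-fold for Malat1 and 1.84-fold for Kcnq1ot1.

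Kcnq1ot1 was at 210, 239 and 386 CPM in frozen liver, 152, 217 and 339 in ethanol, 141, 166 and 309 in 18-hour formalin and 97.2, 177 and 280 in 3-month formalin. With TAE it was at 124, 210 and 386 CPM, with AllPrep catalyst at 144, 309 and 427, with PureLink catalyst at 333, 389 and 523 and with heat alone at 124, 290 and 388. All PureLink libraries were above all 3-month formalin libraries. As for Malat1, the median was lowest in the 2 formalin states and highest with PureLink.

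Gas5, whose name stands for growth arrest specific, was lowest in frozen liver, at 22.7, 30.1 and 33.3 CPM. It was at 27.7, 38.6 and 47.3 CPM in ethanol, 28.4, 37.0 and 44.3 in 18-hour formalin, 25.6, 36.0 and 48.2 in 3-month formalin, 35.1, 43.4 and 56.6 with TAE, 30.4, 39.6 and 47.4 with AllPrep catalyst, 35.4, 39.8 and 49.7 with PureLink catalyst and 29.3, 35.2 and 44.0 with heat alone. The TAE and PureLink libraries lay wholly above the frozen ones, while the other 5 states overlapped with them.

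The other 2 classical hosts had low counts. Snhg1 was at 3.04, 4.34 and 6.51 CPM in frozen liver, and its medians in the 7 other states lay between 6.38 (PureLink catalyst) and 7.47 (18-hour formalin). Snhg12 was at 2.65, 3.18 and 4.50 CPM in frozen liver, with medians from 2.94 (3-month formalin) to 4.85 (PureLink catalyst) elsewhere. It had 0 counts in the shallowest library, where a floor of 3 counts corresponds to 2.37 CPM without TMM scaling. After TMM scaling 3 counts in that library are 2.49 CPM, the value of Epb41l4aos there. Epb41l4aos, on chromosome 18 (33794892 to 33795986, plus strand), was at 0.761, 1.56 and 2.45 CPM in frozen liver, with medians of 2.55 to 3.80 CPM in the other states, the highest of them with TAE. The median library held 80 counts of Snhg1, 47 of Snhg12 and 31.5 of Epb41l4aos, against 126611 of Malat1, so counting error weighs far more on these 3.

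**Figure D1:**
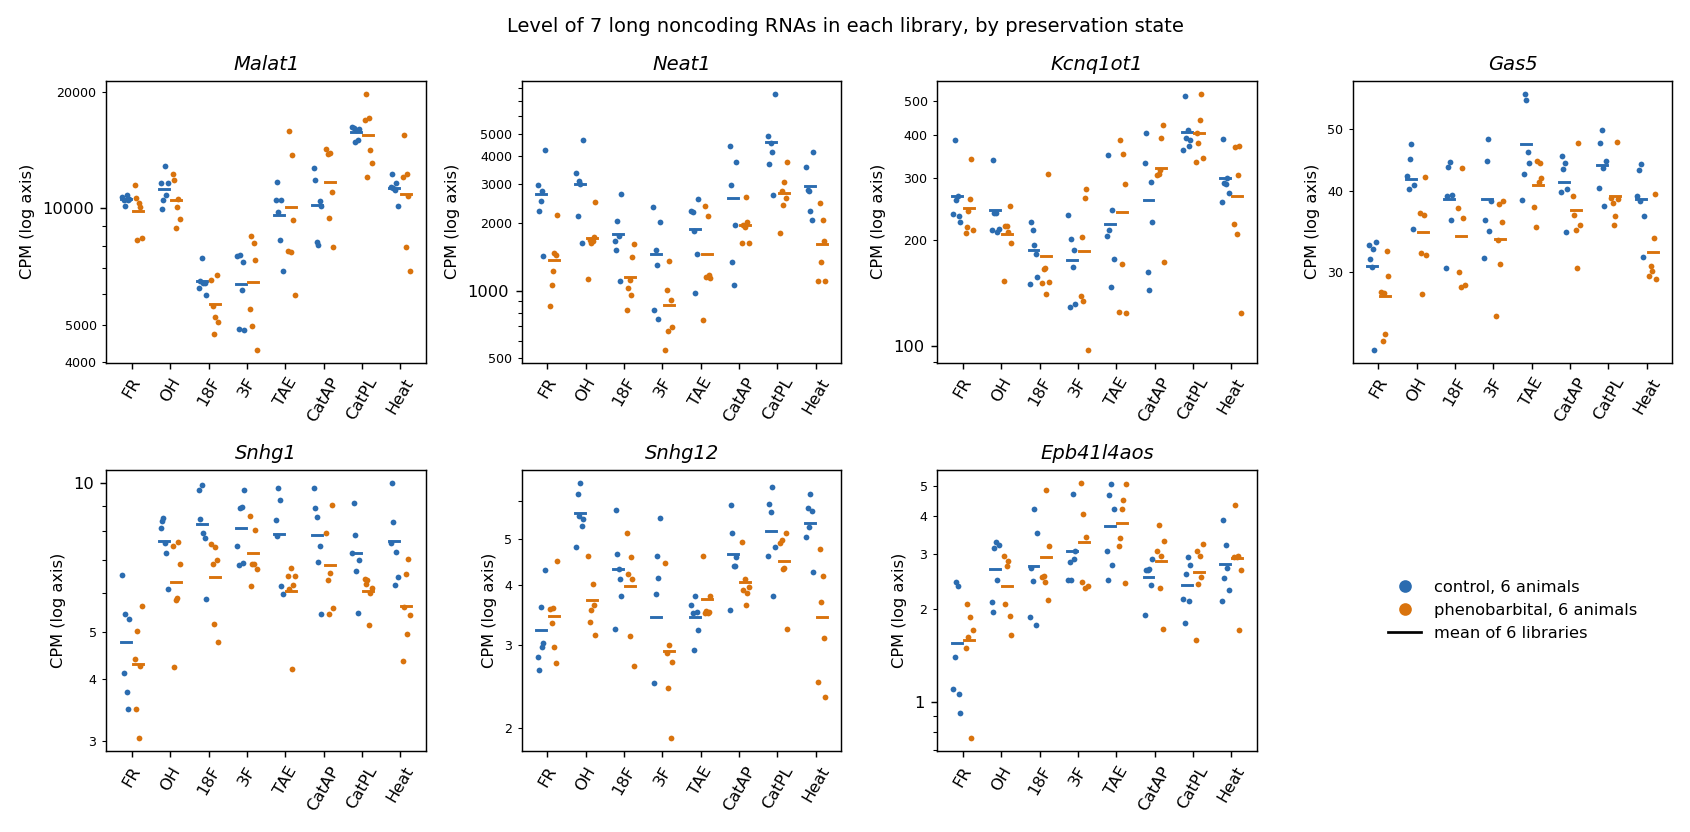
Level of each of the 7 RNAs in each library (CPM after TMM scaling, log axis) by preservation state, with control and phenobarbital animals in different colours and a bar at the mean of each 6. FR is frozen, OH ethanol, 18F and 3F the formalin states, CatAP and CatPL the AllPrep and PureLink catalyst states; the Snhg12 library with 0 counts in 3F Con is off the log axis. Malat1, Neat1 and Kcnq1ot1 sit lowest in the 2 formalin states and highest with PureLink catalyst, while Gas5 and Snhg1 sit lowest in frozen liver.

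Per kilobase of exon not shared with another gene, the order in frozen liver was Malat1 (1479.5 CPM per kb), Neat1 (99.7), Gas5 (9.39), Epb41l4aos (3.65), Kcnq1ot1 (2.77), Snhg1 (1.93) and Snhg12 (1.73). All 12 animals kept the order of the first 3 steps. Epb41l4aos exceeded Kcnq1ot1 in 8 of 12 animals, Kcnq1ot1 exceeded Snhg1 in 10 and Snhg1 exceeded Snhg12 in 9. The gap between Epb41l4aos (SD 1.29) and Kcnq1ot1 (SD 0.576) and that between Snhg1 (SD 0.446) and Snhg12 (SD 0.308) were within the larger SD of each pair, while that between Kcnq1ot1 and Snhg1 was not; these gaps were not tested. None of the host levels includes reads counted to the snoRNA genes: 23 annotated snoRNA genes overlap exons of Gas5 (10), Snhg1 (8) and Snhg12 (5), and all 23 had 0 counts in all libraries. The intronic snoRNA gene of Epb41l4aos, which overlaps no exon, held 5907 counts. The 23 others lie wholly inside host exons on the same strand, where genes so nested seldom had any count (42 of 353, 11.9%). Their 0 counts therefore do not show that their reads were absent, and cannot be set against the 5907.

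The first comparison asks how these levels in stored liver differed from frozen liver of the same animals. In both formalin states the 3 nuclear-retained RNAs were below frozen liver, and the snoRNA hosts and Epb41l4aos were above it or did not pass the test. The hosts and Epb41l4aos were also higher in ethanol, without formalin, as given below. Differences are log2 fold changes with their standard error from edgeR's quasi-likelihood test with the animal as a block, adjusted by Benjamini-Hochberg over all genes tested, and a gene is called at an adjusted p below 0.05. After 18 hours of formalin, Malat1 fell by 0.74 ± 0.04 (adjusted p = 2.42e-15, lower in 12 of 12 animals), Neat1 by 0.38 ± 0.06 (adjusted p = 1.37e-06, 12 of 12) and Kcnq1ot1 by 0.49 ± 0.04 (adjusted p = 1.4e-10, 12 of 12). Neat1 was not called when the animal block was left out. Gas5 rose by 0.34 ± 0.06, Snhg1 by 0.70 ± 0.11, Snhg12 by 0.32 ± 0.12 (adjusted p = 0.0236) and Epb41l4aos by 0.87 ± 0.14. All 7 were called, in a comparison in which 57.9% of 13882 genes were called, 28.1% higher and 29.7% lower, so a call by itself is common here.

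In 3-month formalin the picture was much the same, with 6 of 7 called against 66% of all genes. Malat1 fell by 0.62 ± 0.08 (adjusted p = 7.66e-08) and Neat1 by 0.73 ± 0.10 (adjusted p = 9.34e-07), both in 12 of 12 animals. Kcnq1ot1 fell by 0.48 ± 0.10 (adjusted p = 0.00017) in 11 of 12. Snhg1 rose by 0.87 ± 0.12 and Epb41l4aos by 1.09 ± 0.21, both in 12 of 12 animals, and Gas5 rose by 0.41 ± 0.07 in 10. The Epb41l4aos value of animal 8A in this state rested on 3 counts. Snhg12 differed by 0.02 ± 0.18 (adjusted p = 0.934), with 6 animals on either side. The share of mitochondrial counts was 9.92% in this state against 2.57% in frozen liver, and its part in these differences was not tested.

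In ethanol the nuclear RNAs differed little from frozen liver. All 7 RNAs were called, against 53% of all genes. Malat1 rose by 0.10 ± 0.03 (adjusted p = 0.00457, 10 of 12 animals), Neat1 rose by 0.26 ± 0.04 (adjusted p = 3.01e-06, 11 of 12) and Kcnq1ot1 fell by 0.18 ± 0.03 (adjusted p = 4.5e-05, 11 of 12). Gas5 rose by 0.41 ± 0.04, Snhg1 by 0.63 ± 0.09, Snhg12 by 0.49 ± 0.12 and Epb41l4aos by 0.71 ± 0.14. The hosts were thus higher than in frozen liver with and without formalin, except Snhg12 in 3-month formalin.

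A direct comparison of the 2 stored states shows which of these differences went with formalin. Between 18-hour formalin and ethanol, Malat1 fell by 0.83 ± 0.05 with no overlap between the 2 sets of libraries, Neat1 by 0.63 ± 0.05 and Kcnq1ot1 by 0.30 ± 0.06. None of the 4 others was called: their differences ran from -0.16 (Snhg12) to 0.18 (Epb41l4aos). These 3 of 7 compare with 58.6% of all genes. Between 3-month and 18-hour formalin, Neat1 alone was called, falling by a further 0.38 ± 0.11 (adjusted p = 0.00722, 10 of 12 animals), against 53.9% of all genes; Malat1 differed by 0.09 ± 0.08 and Kcnq1ot1 by -0.03 ± 0.11.

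**Figure D2:**
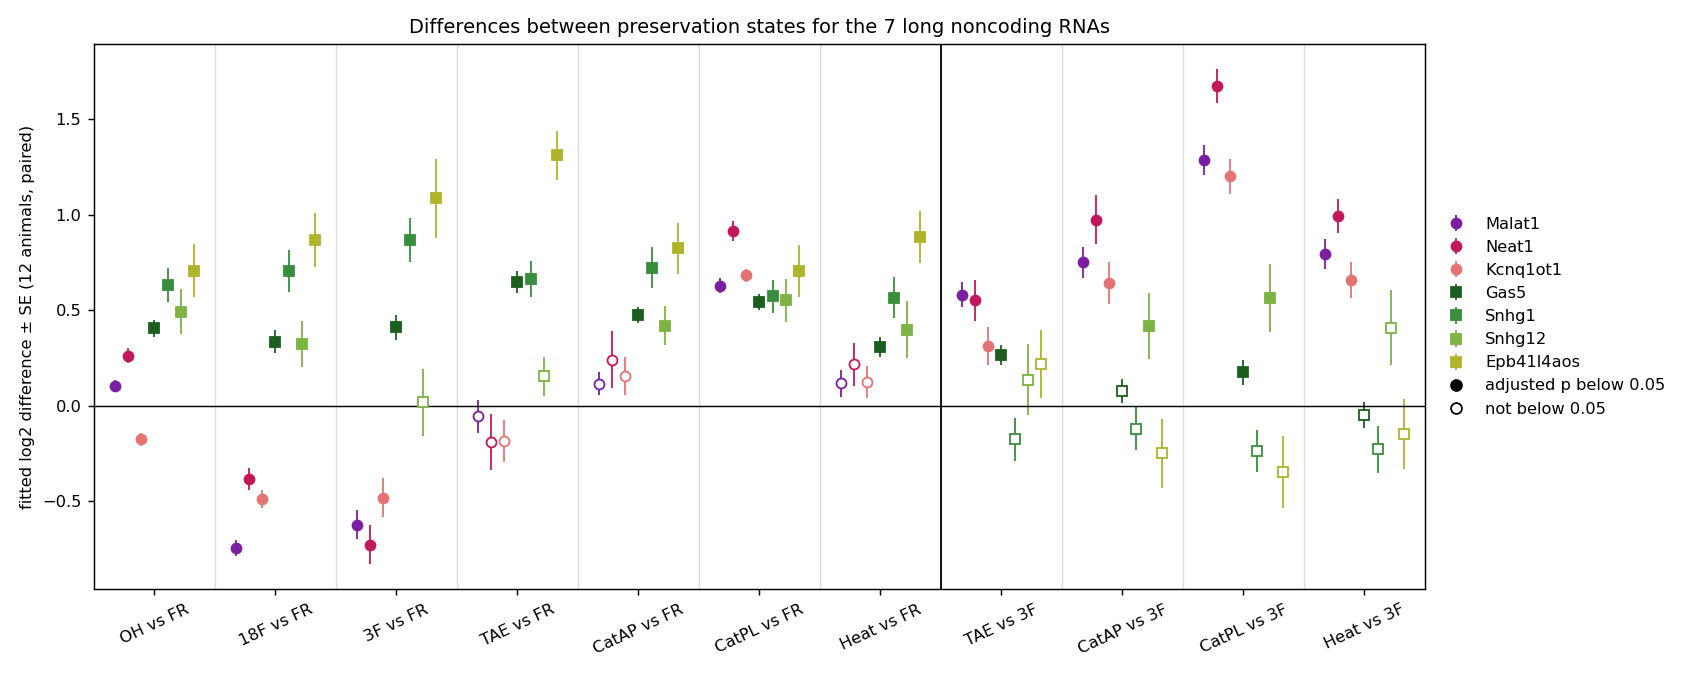
Fitted log2 differences with standard errors (vertical axis) for the 7 RNAs in 7 comparisons with frozen liver and 4 with 3-month formalin liver, paired over 12 animals; filled symbols have an adjusted p below 0.05, circles are nuclear-retained RNAs and squares the hosts and Epb41l4aos. The circles are below 0 in both formalin states and above it in all 4 comparisons with 3-month formalin, with Neat1 highest at 1.68 for PureLink catalyst.

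The next question is how the 4 treated states differed from 3-month formalin. The nuclear RNAs were higher in all 4. No kit is named for the 3-month formalin state, so treatment and kit cannot be told apart in these comparisons. Among the others Gas5 rose with TAE and PureLink catalyst and Snhg12 with both catalyst states, and Snhg1 and Epb41l4aos were not called with any of the 4. With TAE heating of the RNA, Malat1 was higher by 0.58 ± 0.07 (12 of 12 animals) and Neat1 by 0.55 ± 0.11 (10 of 12). Kcnq1ot1 was higher by 0.31 ± 0.10 (adjusted p = 0.0135, 9 of 12) and Gas5 by 0.26 ± 0.05 (12 of 12). These 4 of 7 compare with 34.5% of all genes. Without the animal block Neat1 and Kcnq1ot1 were not called, and with DESeq2 Kcnq1ot1 was not called. With heat alone for 18 hours, Malat1 was higher by 0.79 ± 0.08, Neat1 by 0.99 ± 0.09 and Kcnq1ot1 by 0.66 ± 0.09, each in 12 of 12 animals. No host was called (55.9% of all genes), and Snhg12 differed by 0.41 ± 0.19 (adjusted p = 0.0779). With the catalyst and AllPrep, the rises were 0.75 ± 0.08, 0.97 ± 0.13 and 0.64 ± 0.11, and Snhg12 rose by 0.42 ± 0.17 (adjusted p = 0.0394; 57.8% of all genes).

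Adding the catalyst to the same heat and kit gave no further difference in the nuclear RNAs that passed the test. Malat1 differed by -0.04 ± 0.07 between AllPrep catalyst and heat alone, Neat1 by -0.01 ± 0.12 and Kcnq1ot1 by -0.0046 ± 0.10. Gas5 was the 1 member called, higher by 0.13 ± 0.04 (adjusted p = 0.0448, 11 of 12 animals), against 14% of all genes. That call was lost under 8 alternative settings.

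The PureLink catalyst state stood highest for the nuclear RNAs. Against 3-month formalin, Neat1 rose by 1.68 ± 0.09, which is 3.19-fold, Malat1 by 1.29 ± 0.08 and Kcnq1ot1 by 1.20 ± 0.09, all in 12 of 12 animals. Gas5 rose by 0.17 ± 0.06 (adjusted p = 0.0194) and Snhg12 by 0.56 ± 0.18 (adjusted p = 0.00756). Snhg1 differed by -0.24 ± 0.11 (adjusted p = 0.0598) and Epb41l4aos by -0.35 ± 0.19 (adjusted p = 0.108). These 5 of 7 calls compare with 66.7% of all genes.

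With the same catalyst, PureLink exceeded AllPrep by 0.53 ± 0.05 for Malat1, 0.70 ± 0.11 for Neat1 and 0.55 ± 0.08 for Kcnq1ot1, in 12 of 12 animals each. No host was called: Gas5 differed by 0.09 ± 0.04 at an adjusted p of 0.05002, just above the threshold. These 3 of 7 compare with 36.9% of all genes. The kit is the one labelled difference between these 2 states.

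Measured against frozen liver, the treated states fall into a pair of patterns. In the PureLink state all 7 RNAs were higher than frozen, against 71.2% of all genes called and 37.8% called higher. Malat1 rose by 0.63 ± 0.04 (adjusted p = 4.8e-14), Neat1 by 0.91 ± 0.05 (adjusted p = 4.11e-15) and Kcnq1ot1 by 0.68 ± 0.03 (adjusted p = 4.78e-16), in 12 of 12 animals each, and Gas5 by 0.54 ± 0.04, Snhg1 by 0.57 ± 0.09, Snhg12 by 0.55 ± 0.11 and Epb41l4aos by 0.70 ± 0.14. In the other 3 treated states none of the nuclear RNAs was called against frozen liver. Malat1 differed by -0.05 ± 0.09 with TAE, 0.12 ± 0.06 with AllPrep catalyst and 0.12 ± 0.07 with heat alone. Neat1 differed by -0.19 ± 0.15, 0.24 ± 0.15 and 0.22 ± 0.11, and Kcnq1ot1 by -0.19 ± 0.11, 0.15 ± 0.10 and 0.12 ± 0.08.

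The hosts stayed above frozen in those 3 states. Gas5 rose by 0.65 ± 0.06 with TAE, 0.47 ± 0.04 with AllPrep catalyst and 0.31 ± 0.05 with heat alone. Snhg1 rose by 0.66 ± 0.10, 0.72 ± 0.11 and 0.56 ± 0.11, and Epb41l4aos by 1.31 ± 0.13, 0.82 ± 0.13 and 0.88 ± 0.14. Snhg12 was not called with TAE (0.15 ± 0.10) and rose by 0.42 ± 0.10 and 0.40 ± 0.15 in the other 2. The members called were 3 of 7 with TAE (68.9% of all genes), 4 with AllPrep catalyst (63.2%) and 4 with heat alone (66.8%). Across all 7 comparisons with frozen liver Gas5, Snhg1 and Epb41l4aos were therefore higher each time, by 0.31 to 0.65, 0.56 to 0.87 and 0.70 to 1.31. These comparisons share the 12 frozen libraries.

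Markers of the liver's cell types also differed between states. The 9 hepatocyte markers, none of them at 0, summed to 78795 to 129150 CPM over the frozen libraries (median 104591). Their median sum was 88100 CPM in ethanol, 75921 in 18-hour formalin, 71162 in 3-month formalin, 54243 with TAE, 65470 with AllPrep catalyst, 61051 with PureLink catalyst and 60806 with heat alone. The median hepatocyte sum was lower than in frozen liver in every other state and lowest with TAE. The 9 Kupffer cell markers had a median sum of 542 CPM in frozen liver, 316 with PureLink, 293 with TAE and 295 with heat alone. The 8 endothelial markers gave 866, 659, 682 and 594 CPM in the same 4 states, the 8 stellate cell markers 714, 538, 561 and 482 and the 5 erythroid markers 355, 160, 245 and 199. In 18-hour and 3-month formalin the endothelial sums were 826 and 804 CPM, the stellate cell sums 671 and 670 and the erythroid sums 364 and 330. The Kupffer cell sums there were 475 and 351 CPM. The lymphocyte median sum ran from 32.7 (ethanol) to 40.3 CPM (3-month formalin), against 38.3 in frozen liver. With PureLink against frozen, 8 of 9 hepatocyte, 9 of 9 Kupffer cell, 8 of 8 endothelial, 6 of 8 stellate cell and 5 of 5 erythroid markers were lower. Of 2 cholangiocyte markers tested 1 was higher and 1 lower, and the 1 lymphocyte marker tested was higher. The part of these markers in the differences of the 7 RNAs was not tested.

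In 3-month formalin, with TAE and with AllPrep catalyst, the differences of the 3 nuclear RNAs correlated over the 12 animals, both arms pooled. Each animal's log2 difference from its own frozen liver was compared between genes over 12 animals, in 35 relations adjusted together, with permutation p-values from 100000 resamples. The values share a library, its scaling and the frozen library of the animal, which can by themselves give a correlation. So can a difference between the pooled arms. With AllPrep catalyst the phenobarbital difference minus that in frozen liver was 0.28 ± 0.10 for Malat1, 0.72 ± 0.27 for Neat1 and 0.44 ± 0.18 for Kcnq1ot1. None of these was called, and the part of the arms in the correlations was not tested. With AllPrep catalyst, animals 21C and 8D fell in all 3 RNAs: Malat1 by 0.43 and 0.31, Neat1 by 1.38 and 0.90 and Kcnq1ot1 by 0.89 and 0.67. Animals 18D and 20D rose in all 3, with Malat1 at 0.38 and 0.43, Neat1 at 0.89 and 0.82 and Kcnq1ot1 at 0.51 and 0.57. Malat1 and Neat1 correlated there with r = 0.96 and rho = 0.94 (both at the smallest p that these permutations can give, adjusted permutation p = 0.000175 for r), and r was 0.88 without the 2 animals farthest from the median. These 2 were taken by Malat1 in pairs that hold it and by Neat1 otherwise. Malat1 and Kcnq1ot1 gave r = 0.94 and rho = 0.97 (adjusted permutation p = 0.000233; 0.82 without those 2), and Neat1 and Kcnq1ot1 gave r = 0.99 and rho = 0.97 (0.95 without them).

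TAE showed the same with another order of animals. Malat1 and Kcnq1ot1 gave r = 0.89 and rho = 0.87 (adjusted permutation p = 0.000612; 0.93 without the 2 farthest), Malat1 and Neat1 r = 0.82 and rho = 0.78 (0.71), and Neat1 and Kcnq1ot1 r = 0.88 and rho = 0.83 (0.75). In 3-month formalin the 3 values of r were 0.83 (rho 0.80, adjusted permutation p = 0.00267), 0.75 (rho 0.73) and 0.89 (rho 0.86). In the heat-only state r was 0.84 to 0.91, but fell to 0.23 to 0.59 without the 2 farthest animals. Malat1 and Neat1 gave rho = 0.81 there (adjusted permutation p = 0.0111 for rho). Malat1 with Kcnq1ot1 gave rho = 0.55 and Neat1 with Kcnq1ot1 0.57, neither past the threshold, so the relations with Kcnq1ot1 rest on those 2 animals. With PureLink catalyst Malat1 and Neat1 gave r = 0.64 and rho = 0.03 (adjusted permutation p = 0.0738), and r was -0.37 without the 2 farthest animals. Malat1 and Kcnq1ot1 gave r = 0.61 and rho = 0.46 there (adjusted permutation p = 0.1005; -0.10 without those 2). Neat1 and Kcnq1ot1 gave r = 0.72 and rho = 0.54 (adjusted permutation p = 0.0336 for r and 0.167 for rho, the second not past the threshold). Without the 2 animals farthest for Neat1, r was 0.55. In 18-hour formalin r ran from 0.16 to 0.63 and in ethanol from 0.12 to 0.33, and in those 2 states no relation passed the adjusted threshold. Gas5 and Malat1 gave r = 0.25 with TAE and 0.06 with AllPrep catalyst, neither past the threshold. With heat alone they gave r = 0.72 and rho = 0.76 (adjusted permutation p = 0.0142; 0.77 without the 2 farthest animals). The mitochondrial share correlated with Malat1 with r = 0.65 in TAE (adjusted permutation p = 0.0527) and -0.53 with AllPrep catalyst (adjusted permutation p = 0.128).

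**Figure D3:**
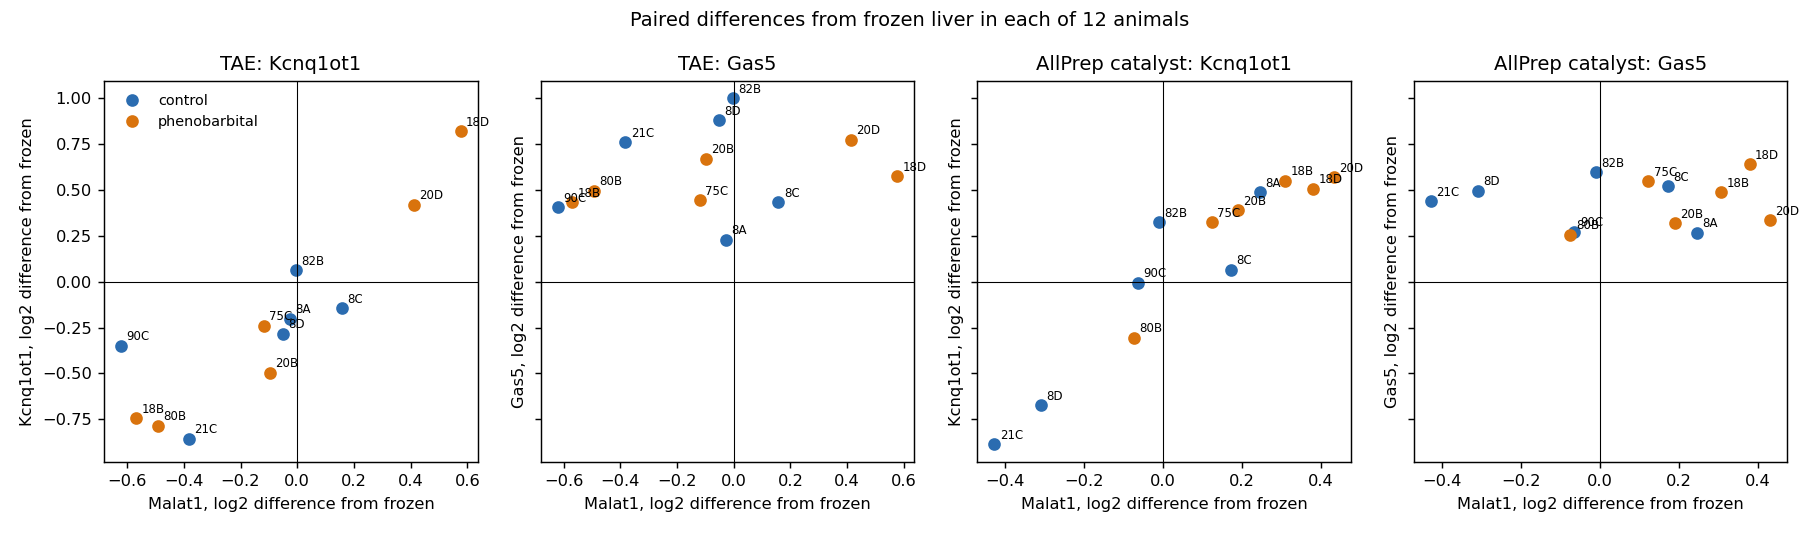
Log2 difference from frozen liver in each of 12 animals, Malat1 on the horizontal axis and Kcnq1ot1 or Gas5 on the vertical axis, for the TAE and AllPrep catalyst states; each point is 1 animal. Kcnq1ot1 tends to be higher where Malat1 is higher, with animals 18D and 20D highest for Malat1 in both states, while Gas5 is above 0 in all 12 animals wherever Malat1 lies.

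The animal spread of Malat1 also widened after formalin. Its coefficient of variation over 12 animals, both arms together, was 9.29% in frozen liver, 11.0% in ethanol, 12.9% in 18-hour formalin and 22.9% in 3-month formalin. It was 29.3% with TAE, 21.3% with AllPrep catalyst, 19.7% with heat alone and 12.9% again with PureLink catalyst. The SD of Malat1 was larger in treated than in control animals in every state. It was 1282 against 232 CPM in frozen liver, 1758 against 1283 in 3-month formalin and 2919 against 593 with PureLink. The coefficient of variation of Kcnq1ot1 went from 20.8% in frozen liver to 32.1% in 3-month formalin, 39.7% with TAE and 15.1% with PureLink. Neat1 had 48.1% in frozen liver and between 36.2% and 49.2% in all 7 others. These spreads were not tested against each other.

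Genes with the most similar state pattern were found by the root mean square distance between the 7 mean paired differences from frozen liver, among 9614 genes with a mean of at least 5 CPM. For Malat1 they were Hnrnph1 (0.114), Clk4 (0.145) and Rbm12b2 (0.147), for Neat1 Gcfc2 (0.137), Mpp4 (0.138) and Clk4 (0.150), and for Kcnq1ot1 Fubp1 (0.129), Zfp326 (0.131) and Snapc3 (0.136), all coding genes. The mean paired differences of Hnrnph1, a splicing regulator, were -0.51 in 18-hour formalin, -0.62 in 3-month formalin and 0.51 with PureLink, beside -0.75, -0.70 and 0.61 for Malat1. Among themselves Malat1 and Kcnq1ot1 were 0.163 apart and Malat1 and Gas5 0.645. The nearest genes of Gas5 were Anp32b (0.0609), Rnf220 (0.0889) and Elac1 (0.0904), and those of Snhg1 were Hhex (0.101), Mbd3 (0.112) and Ccnk (0.114). Snhg12 and Epb41l4aos were below 5 CPM and were not searched.

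**Figure D4:**
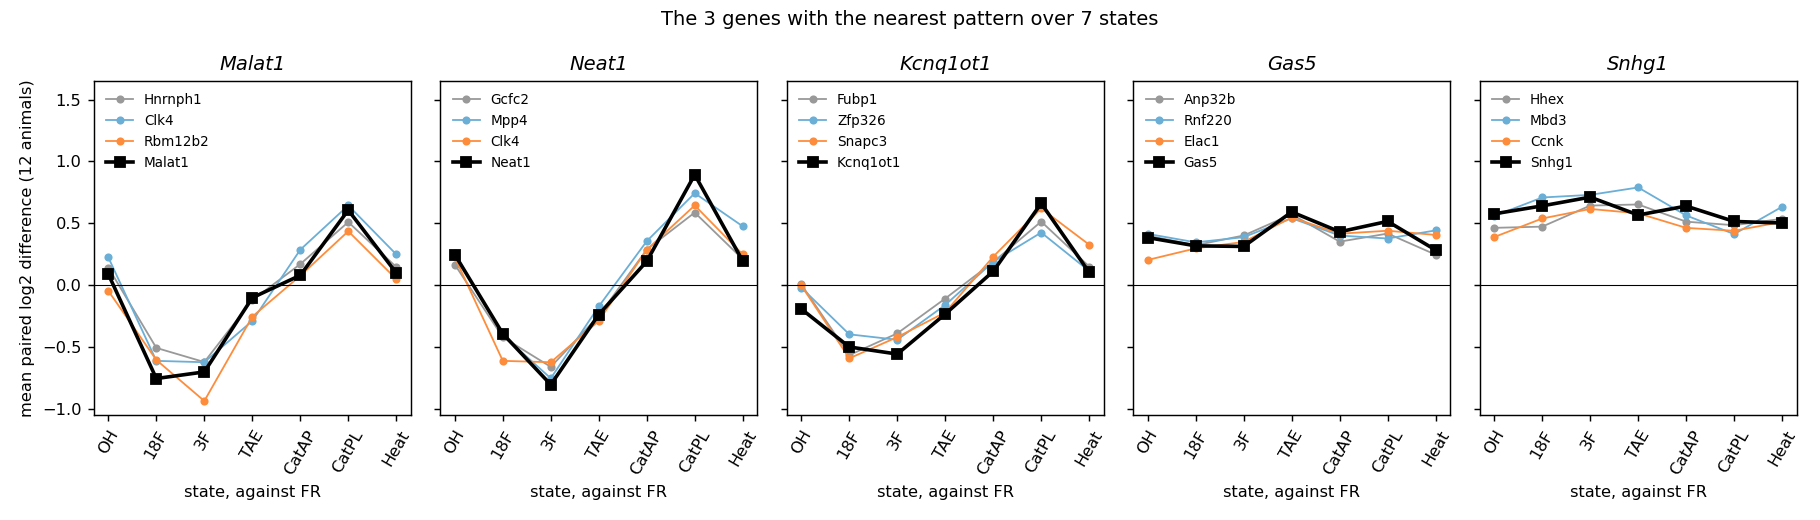
Mean paired log2 difference from frozen liver over 12 animals (vertical axis) in 7 states for 5 of the RNAs (black squares) and the 3 genes nearest to each (circles). Malat1, Neat1 and Kcnq1ot1 and their nearest genes dip in 18F and 3F and peak in CatPL, while Gas5 and Snhg1 and theirs stay between 0.20 and 0.79 throughout.

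Other RNAs of the 2 classes were counted from fixed lists, to be read beside the calls over all genes. Higher and lower than frozen were 3595 and 3775 genes in ethanol, 3907 and 4129 in 18-hour formalin and 4573 and 4320 in 3-month formalin. With TAE they were 5070 and 4467, with AllPrep catalyst 4840 and 4009, with PureLink 5339 and 4729 and with heat alone 4629 and 4645. Each comparison tested 13477 to 14132 genes. Of 15 other nuclear or chromatin-bound noncoding RNAs, 11 could be tested in 18-hour formalin against frozen, where 2 rose and 5 fell (median -0.28, against -0.01 over all genes). In 3-month formalin 3 rose and 4 fell of 11 (median -0.02). Lncpint fell by 0.76 ± 0.09, while Jpx, an activator of Xist, rose by 0.97 ± 0.12 and Norad, a mainly cytoplasmic decoy of Pumilio proteins, by 0.74 ± 0.11. Firre, a nuclear-organising transcript of the X chromosome, differed by -0.02 ± 0.10. With PureLink catalyst 12 of 12 rose against frozen (median 0.50, all genes 0.03), led by Meg3, an imprinted RNA, with 1.50 ± 0.15, Firre with 1.19 ± 0.06 and Jpx with 1.02 ± 0.06. From 3-month formalin to PureLink 7 of 10 rose and 2 fell, with Lncpint up by 1.27 ± 0.09. Of all 13556 genes tested there 4737 rose and 4310 fell.

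The other noncoding snoRNA hosts leaned upward in ethanol and the treated states but were mixed in the 2 formalin states. Of 18 listed 15 were in the table and 13 tested. Against frozen liver 10 rose and 0 fell in ethanol (median 0.52), 5 and 3 in 18-hour formalin (0.12), 5 and 4 in 3-month formalin (0.20), 6 and 0 with TAE (0.24), 12 and 0 with AllPrep catalyst (0.50), 12 and 0 with PureLink (0.74) and 10 and 0 with heat alone (0.53). Over all genes 28.1% were called higher and 29.7% lower in 18-hour formalin, and 37.8% higher with PureLink. In 3-month formalin Snhg6 rose by 1.03 ± 0.10 and Zfas1 by 0.52 ± 0.12, whereas Snhg14 fell by 0.41 ± 0.15. With PureLink Snhg11 rose by 1.42 ± 0.08 and Snhg14 by 0.93 ± 0.09. Of 20 coding genes that host snoRNAs, 2 rose and 9 fell in 3-month formalin (median -0.13) and 1 rose and 16 fell with PureLink (median -0.47). Tpt1, which encodes a translationally controlled protein, rose by 0.99 ± 0.06 in 3-month formalin, and the ribosomal protein gene Rpl23a fell by 0.86 ± 0.05 with PureLink.

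Among 14 genes for paraspeckle and speckle proteins, which bind Neat1 or sit with Malat1, 1 rose and 6 fell in 18-hour formalin against frozen, and 0 rose and 12 fell against ethanol (median -0.34). Against ethanol 4034 of all 13736 genes tested rose and 4019 fell. With PureLink catalyst 11 rose and 3 fell against frozen (median 0.46) and 12 rose and 1 fell against 3-month formalin (median 0.54). In 3-month formalin Pspc1 fell by 0.55 ± 0.09, Hnrnph3 by 0.49 ± 0.09 and Nono, a core paraspeckle protein, by 0.42 ± 0.05, while Sfpq, the partner of Nono, differed by -0.03 ± 0.06. With PureLink against frozen, the splicing factor gene Srsf2 rose by 0.74 ± 0.04 and Hnrnph3 by 0.71 ± 0.05. Of 3 coding mRNAs known to be held in liver nuclei, Mlxipl rose by 1.01 ± 0.07 and Nlrp6 by 1.08 ± 0.05 with PureLink against frozen, and Slc7a2 differed by 0.01 ± 0.03. In 3-month formalin those 3 differed by -0.07 ± 0.08, 0.32 ± 0.07 and 0.47 ± 0.05, with Mlxipl not called.

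Genes around the members and of their processing were counted in the same way, against 66% of all genes called in 3-month formalin and 71.2% with PureLink. Kcnq1, the coding gene on the other strand of Kcnq1ot1 at a mean of 2.52 CPM, was not called in 3-month formalin (-0.12 ± 0.18) or with PureLink (-0.02 ± 0.12). Of 7 tested genes of the Kcnq1 cluster 1 rose and 3 fell in 3-month formalin, and 0 rose and 4 fell with PureLink. Of 5 coding neighbours of Malat1 and Neat1, 1 rose and 3 fell with PureLink. Of 11 genes for RNase P and RNase Z subunits, 0 rose and 9 fell there (median -0.32). Rpph1, the RNA of RNase P, rose by 1.10 ± 0.07 in 18-hour and 0.87 ± 0.10 in 3-month formalin and fell by 0.14 ± 0.04 with PureLink. Of 10 nonsense-mediated decay factors, 1 rose and 5 fell in 3-month formalin and 6 rose and 3 fell with PureLink. Of 15 snoRNP proteins, 1 rose and 9 fell in 3-month formalin (median -0.34).

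The last comparison asks whether phenobarbital changed the 7 RNAs in each state, 6 animals against 6. Neat1 was lower in treated animals in all 8 states, and passed the test in frozen liver only. The control values in frozen liver were 1426, 2643 and 4233 CPM (lowest, median, highest) and the treated values 860, 1333 and 2176. The groups overlapped, with 3 treated animals below all controls and 6 of 6 below the control median. Neat1 fell by 0.97 ± 0.25 (adjusted p = 0.0249), and 1 of 7 members called compares with 9.43% of 13929 genes. The call was lost when any of 8A, 90C, 18D or 20B was left out.

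Elsewhere Neat1 differed by -0.79 ± 0.23 in ethanol (adjusted p = 0.0574), -0.65 ± 0.20 in 18-hour formalin (0.0870), -0.75 ± 0.28 in 3-month formalin (0.246), -0.39 ± 0.29 with TAE (0.588), -0.39 ± 0.30 with AllPrep catalyst (0.520), -0.73 ± 0.22 with PureLink catalyst (0.0849) and -0.82 ± 0.23 with heat alone (0.0518), the values in parentheses being adjusted p from edgeR. In the heat-only state the controls were at 2058, 2793 and 4170 CPM and the treated animals at 1105, 1504 and 2457, with 4 treated animals below all controls. With AllPrep catalyst the controls spread from 1065 to 4399 CPM and enclosed all 6 treated animals, at 1629 to 2608. The same 12 animals appear in all 8 states, so the repeated direction is not 8 independent results. Markers also differed with phenobarbital: in frozen liver the hepatocyte sum had a median of 113834 CPM in controls and 88389 in treated animals, with 2 of 9 markers called lower, and the Kupffer cell sum 542 and 587 CPM with none called. The median difference of the hepatocyte markers was negative, from -0.15 to -0.35, and that of the Kupffer cell markers positive, from 0.21 to 0.52, in all 8 states. The part of these markers in the Neat1 difference was not tested.

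**Figure D5:**
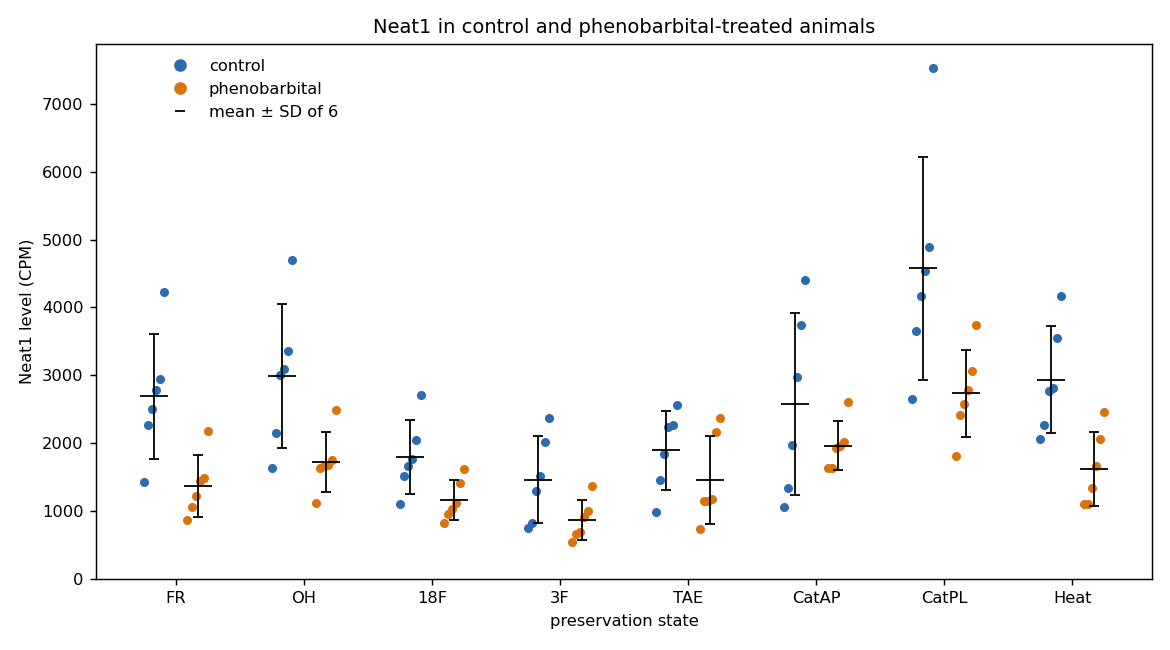
Neat1 level (CPM) in 6 control and 6 phenobarbital-treated animals in each of 8 states, with mean and SD; each point is 1 library. The treated mean is below the control mean in each state and the groups overlap in each, with 1 control near 7535 CPM in the CatPL state.

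With the counts of all 8 states summed for each animal, Neat1 differed by -0.71 ± 0.20 (adjusted p = 0.0484, against 7.44% of 18478 genes called). Leaving out each animal gave adjusted p from 0.0233 to 0.107, below 0.05 in 2 of 12 cases. This summed test was chosen after seeing the data. The other 6 RNAs were not called in it: Gas5 differed by -0.20 ± 0.07 (adjusted p = 0.119), Snhg1 by -0.28 ± 0.09 (0.0977), Snhg12 by -0.25 ± 0.08 (0.0889), Malat1 by -0.03 ± 0.12, Kcnq1ot1 by -0.01 ± 0.15 and Epb41l4aos by 0.05 ± 0.14.

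Snhg12 gave the other call, in ethanol. The controls were at 4.80, 5.55 and 6.57 CPM and the treated animals at 3.14, 3.59 and 4.60, without overlap. It fell by 0.60 ± 0.12 (adjusted p = 0.00847), 1 of 7 members against 6.98% of all genes. In frozen liver it differed by 0.10 ± 0.16 and in the heat-only state by -0.63 ± 0.19 (adjusted p = 0.0689). The ethanol libraries held 42 to 83 counts of it, and the call was lost when all libraries were thinned to the shallowest.

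Gas5 was lower in treated animals in all 8 states, by 0.14 to 0.27, and Snhg1 by 0.14 to 0.41, but neither was called in any. No member was called in 18-hour formalin (4.88% of all genes), 3-month formalin (2.1%), TAE (3.29%), AllPrep catalyst (4.94%), PureLink catalyst (4.65%) or heat alone (5.03%). Over the 56 tests 2 passed with edgeR, 7 with DESeq2, and 14 had an unadjusted p below 0.05 with edgeR. Over all genes such unadjusted p-values were also common, most in frozen liver (3424 of 13929) and least in 3-month formalin (1609 of 13018). DESeq2 called 1047 genes higher and 663 lower in frozen liver, and 345 and 139 in 3-month formalin.

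The test of whether the phenobarbital difference in a preserved state departed from that in frozen liver called 0 of 49 with edgeR and 0 with DESeq2; 8 had an unadjusted p below 0.05. Over all genes edgeR called 0% in 6 states and 0.0612% in the heat-only state. Its unadjusted p was below 0.05 for 614 of 14603 genes with TAE, the fewest, and 1652 of 14717 with heat alone, the most. DESeq2 called most with AllPrep catalyst, 1 gene higher and 85 lower of 14737. For Neat1 the term was positive in 7 of 7 states, from 0.10 ± 0.23 with heat alone to 0.72 ± 0.27 with AllPrep catalyst (adjusted p = 0.382), which means a smaller treated-to-control difference than in frozen liver. All 7 terms share the frozen libraries. For Snhg12 the term was -0.71 ± 0.20 in ethanol (adjusted p = 0.656) and -0.77 ± 0.26 with heat alone (0.267).

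Among the other noncoding RNAs, phenobarbital raised 5 of 12 tested in frozen liver and lowered 0. Rian rose by 2.36 ± 0.22, Meg3 by 1.64 ± 0.24 and Pvt1 by 0.57 ± 0.17. Of 13 other snoRNA hosts 3 rose, Rian, Snhg11 (1.00 ± 0.17) and Snhg14 (0.63 ± 0.15), and 0 fell in frozen liver. Over all genes 821 of 13929 were called higher there. Of the 14 paraspeckle and speckle genes 0 were called in any of the 8 states, in which 2.1% to 9.43% of all genes were called.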

How the data were processed

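Libraries were made with a stranded total RNA kit after ribosomal RNA depletion, per the series' design text. CASAVA, STAR 2.5, edgeR, GRCm38 and mm10 are named without roles, per the submitters' processing notes; which tool counted reads, with which annotation and strand setting, is not given in the sources used here. The authors deposited raw counts per gene, whole and not normalized, and these were the basis of every test. The authors also deposited log2 values, which match log2 of CPM with 0.05 added to each count, and these served 1 alternative. Of 47465 lines, 92 were spike-ins with 110 counts in all and were left out; 46954 of 47373 genes matched GENCODE M21. Of the genes nested in exons of a gene with many counts, 42 of 353 (11.9%) on the same strand and 210 of 226 (92.9%) on the opposite strand had any count, so levels per kilobase use only exon bases free of same-strand overlap.

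Tests used edgeR 4.0.16 in R 4.3.3 (quasi-likelihood F test, TMM, default low-count filter by group, Benjamini-Hochberg at 0.05). State comparisons took the animal as a block over 24 libraries, phenobarbital was tested within 12 libraries of a state, and interactions over 24. Titles carry the animal: over 10191 genes the deviations of same-animal libraries correlated above 0.1 in 336 of 336 pairs over 28 pairs of states (medians 0.434 to 0.775). Levels are CPM with TMM scaling over 96 libraries; paired differences use log2(CPM + 0.5). No libraries were identical. Floors of 3 counts cover counting error only, whereas the standard errors of the fits also include spread between libraries. The members and gene lists were chosen with earlier results of these data known. Named list genes are up to 3 called with the largest change and a mean of at least 5 CPM and up to 2 uncalled; Kcnq1 was named besides, and 1 gene that the rule named is not reported here. Alternatives were DESeq2 1.42.0, limma 3.58.1 on the deposited log2 values, no filter, RLE scaling, library totals alone, leaving out mitochondrial genes, thinning, 1 treatment arm only, no block, and each animal left out. The tests were checked on simulated counts.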

Additional observations from a re-analysis of the deposited data

Results flagged for a closer look

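In groups of 6 animals, 12 of 112 combinations of gene and group held a library far from the other 5 (gap over range above the critical value for 6); chance alone sets apart about 1 group in 20. Kcnq1ot1 was highest in control animal 8C in 4 states: 386 CPM in frozen liver (next 267), 339 in ethanol (240), 517 with PureLink catalyst (414) and 388 with heat alone (302). In treated animal 75C it was at 309 CPM in 18-hour formalin (next 167). Malat1 in control 8D was at 7455 CPM in 18-hour formalin (next 6496). Gas5 was low in control 82B in frozen liver, at 22.7 CPM (next 30.5), and high in treated 75C with PureLink catalyst, at 47.7 CPM (39.1). Snhg1 was lowest in treated 20D with TAE, at 4.21 CPM (6.09), and with PureLink catalyst, at 5.17 CPM (5.99). Snhg12 was highest in treated 18B with TAE, at 4.60 CPM (3.79), and Epb41l4aos was highest in control 21C in 3-month formalin, at 4.71 CPM (3.07).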

How the results depend on the processing

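Library totals in place of TMM moved the median of all genes by up to 0.265 (PureLink catalyst against frozen), and fold changes are relative to that scaling. The falls of Malat1, Neat1 and Kcnq1ot1 in both formalin states and their rises with PureLink kept direction and call under each alternative that gave a value, except that Neat1 in 18-hour formalin was not called without the block (-0.41). The values below are counts of the 7 members called. With no replicate block, ethanol against frozen gave 4, 3-month against 18-hour formalin 0, TAE against 3-month formalin 2, AllPrep catalyst against heat alone 0 and PureLink against AllPrep catalyst 1. Over all genes that setting called 2367 higher and 2194 lower of 13908 in ethanol against frozen. Between 3-month and 18-hour formalin it called 2942 and 3045 of 13214, and for TAE against 3-month formalin 1049 and 1252 of 13296. For AllPrep catalyst against heat alone it called 86 and 37 of 13807. For PureLink against AllPrep catalyst it called 163 and 165 of 14124. Thinned to the shallowest library, ethanol gave 4, 18-hour formalin 4, 3-month formalin 3, AllPrep catalyst 1, PureLink 4 and heat alone 2. With no filter TAE gave 5 and AllPrep catalyst 7; with library totals AllPrep catalyst and heat alone gave 7 each and 3-month against 18-hour formalin 2; in control animals only TAE gave 5 and heat alone 7. Over all genes no filter called 5264 higher and 4778 lower of 28431 with TAE, and 4585 and 4354 of 28661 with AllPrep catalyst. The calls over all genes under thinning, library totals and 1 arm are not given here. AllPrep catalyst against heat alone gave 0 also under DESeq2, no filter, RLE, totals, no mitochondrial genes, thinning and without 18B. Over all genes DESeq2 called 1021 higher and 662 lower of 13807 there, and no filter 1230 and 777 of 28716. Some uncalled differences from frozen changed sign: Neat1 with TAE to 0.0365 (totals) and 0.0443 (treated animals only), Kcnq1ot1 with TAE to 0.0428 (totals), and with AllPrep catalyst in controls only Malat1 to -0.0287, Neat1 to -0.125 and Kcnq1ot1 to -0.0699.

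For phenobarbital, frozen liver gave 0 to 1 with 1 animal left out (0 without 8A, 90C, 18D or 20B). Ethanol gave 2 with DESeq2, no filter or totals, 0 on thinning and up to 2 with 1 animal left out (without 8C, 82B, 75C or 80B). In 18-hour formalin and with PureLink catalyst DESeq2 gave 1 and omission of 82B gave 1. Heat alone gave 2 with DESeq2, 1 with no filter, 1 with limma, and up to 2 with 1 animal left out (18D; 20D gave 1). Over all genes DESeq2 called 872 higher and 563 lower of 13963 in ethanol, and 665 and 371 of 13683 with heat alone. In 18-hour formalin it called 654 and 361 of 13623, and with PureLink catalyst 589 and 382 of 14311. No filter called 615 and 254 of 26539 in ethanol and 505 and 180 of 26605 with heat alone. Calls over all genes under totals, limma or omission of 1 animal are not given here. With no filter the interactions gave 2 in ethanol, 1 in 18-hour formalin, 1 with TAE and 3 with AllPrep catalyst. Over all genes they gave 38 higher and 20 lower of 28322 in ethanol, and 22 and 43 of 28201 in 18-hour formalin. With TAE they gave 7 and 2 of 28431, and with AllPrep catalyst 48 and 30 of 28661. No paired analysis was possible for phenobarbital within a state because the 2 arms hold different animals. Depth limits Snhg1, Snhg12 and Epb41l4aos most.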

Other observations

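Gm37376, a gene of 453 bases annotated on the strand opposite to Malat1 and within its exon (GRCm38, chromosome 19, 5801941 to 5802393, plus strand), was chosen after its values were seen. Per base it held a median of 1.94% of the Malat1 count in frozen liver (lowest 0.365%, highest 5.37%), 0.957% in ethanol, 1.25% in 18-hour formalin, 3.83% in 3-month formalin (highest 14.9%), 3.49% with TAE, 3.28% with AllPrep catalyst, 2.47% with PureLink catalyst and 4.49% with heat alone (highest 11.4%). In frozen liver it lay in 2 separate ranges: 6 libraries (8A, 8C, 82B, 20D, 75C and 80B) at 2.51 to 5.00 CPM and 6 (8D, 21C, 90C, 18B, 18D and 20B) at 19.8 to 33.2 CPM, each range holding 3 control and 3 treated animals. The same 2 sets of animals were apart in ethanol (0.674 to 4.18 and 10.1 to 32.6 CPM) and with PureLink catalyst (4.18 to 25.3 and 30.8 to 104 CPM), but not in the 5 other states: with heat alone 20D was at 91.9 and 82B at 76.6 CPM while 8D was at 5.94, and in 3-month formalin 90C was lowest at 0.614 CPM. The Malat1 level itself ran from 8270 to 11469 CPM over the frozen libraries. No test was made, since the ranges were seen in the data.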
